A study of Mus musculus with 6 samples.

Results

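Mouse embryonic stem cells (ESCs) in culture hold a small, shifting fraction of cells that transcribe genes of the 2-cell embryo, and 8 such genes were followed here through endoderm differentiation: Zscan4c, Zscan4d, Zscan4f, Tcstv1, Tcstv3, Zfp352, Cphx1 and Cphx2. They are 8 of the 24054 genes in the deposited tables and were chosen by name as genes of the 2-cell-like state and by their measured level in the ESC population. Their differences between ESCs and the later populations are therefore given as a description, with no test, and only the step between both later populations was tested.

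The samples came from the DKI line, 1 mouse ES cell line of genotype Foxa2-Venus heterozygous;Sox17-Cherry homozygous, in which fluorescent fusion proteins report the endoderm factors Foxa2 and Sox17. Undifferentiated ESCs sorted as Foxa2-Venus-neg/Sox17-Cherry-neg are called d0. Cells kept for 3 days in endoderm medium with 1 ng/ml Wnt3a and 10 ng/ml Activin A and sorted as Foxa2-Venus-pos/Sox17-Cherry-neg are the mesendoderm population d3F, and cells kept for 5 days in the same medium and sorted as Foxa2-Venus-pos/Sox17-Cherry-pos are the endoderm population d5FS. Each population has 2 libraries of ribosome-depleted total RNA, 6 in all, which the study calls independent biological replicates of this line. In the study's own list of libraries, 1 of the 2 in every population carries the word mRNA in its name and the other totRNA, with no replicate number beside them. A difference in library type and the differences between replicates described here therefore cannot be told apart.

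Zscan4 genes encode nuclear proteins with a SCAN domain and zinc fingers that act at telomeres and mark the transient 2-cell-like state. Tcstv genes encode small proteins switched on in the same cells, Zfp352 encodes a zinc finger protein of the early embryo, and the Cphx genes encode homeobox proteins of the oocyte and cleavage embryo. The homeobox factor Dux switches on many genes of the 2-cell embryo, and Dppa2 and Dppa4 act upstream of Dux.

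Library totals lay between 16457729 and 22768686 expected counts, and a count of 0 allowed a level of up to 0.132 to 0.182 CPM in a library (counting error only), where CPM are expected counts scaled to a library total of 1000000. The genes of the sort followed its labels, with Foxa2 at 0.0452 and 0.270 CPM in d0 against 39.3 to 76.9 CPM in d3F and d5FS, and Sox17 at 0.769 and 0.449 CPM in d0 against 58.1 and 102 CPM in d5FS. Replicate 2 had more genes with at least 1 count than replicate 1 in every population, with 18642 against 16970 in d0, 18343 against 16835 in d3F and 19846 against 16770 in d5FS. In d0, replicate 2 stood apart in pluripotency genes too. The summed level of 12 naive pluripotency markers was 2049 CPM in d0 replicate 1 and 6667 CPM in d0 replicate 2, against 268 to 1112 CPM in the later libraries, with none of the 12 at 0 in any library. Dppa5a, at 613 and 3899 CPM in d0, carried much of this sum, and the other 11 markers summed to 1436 and 2768 CPM in d0. All 12 had a higher CPM in d0 replicate 2, by 1.34 times for Pou5f1, 1.67 times for Sox2, 3.43, 3.33 and 3.50 times for Zfp42, Klf4 and Nanog and up to 6.68 times for Tbx3. In TPM, values that RSEM scales by transcript length and library, the same ratios were 0.738, 0.924, 1.89, 1.84, 1.93 and 3.71, so Pou5f1 and Sox2 were lower in d0 replicate 2 on that scale. The median ratio of d0 replicate 2 to d0 replicate 1 over all 16881 genes with at least 10 counts was 0.884 in CPM and 0.558 in TPM. The summed mesendoderm markers were 34.3 and 12.1 CPM, the endoderm markers 7.78 and 8.45 CPM, the fibroblast markers 10.9 and 15.3 CPM, the trophoblast markers 54.7 and 64.8 CPM and the germ line markers 40.8 and 37.1 CPM in d0 replicates 1 and 2. In the later libraries these lists lay at 324 to 527, 190 to 1164, 39.2 to 252, 154 to 218 and 1.79 to 3.77 CPM. The sums hid genes that went opposite ways. Mean CPM in d0 and d5FS was 7.54 and 122 for Eomes, a trophoblast and mesendoderm marker, and 6.65 and 63.9 for Krt7. It was 41.5 and 6.16 for Tfap2c and 3.33 and 0.471 for Cdx2. Among fibroblast markers it was 1.82 and 136 for Col1a2 but 2.24 and 0.775 for Thy1. In d0 replicates 1 and 2, the germ line gene Stra8 was at 0.317 and 6.69 CPM and Ddx4 at 20.9 and 9.88 CPM. What these differences between libraries contribute to the values below was not tested. In bulk samples, fewer 2-cell-like cells and less RNA per such cell cannot be told apart.

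Several of the genes exist as near-identical copies, and their start regions are shown because the copies can hardly be told apart by sequence. RefSeq (GRCm38.p6) places Zscan4c at chr7:11005745-11010547, Zscan4d at chr7:11161643-11166148 and Zscan4f at chr7:11397915-11402318, all protein-coding, in a cluster of 6 Zscan4 rows that spans 608 kb. Cphx1 lies at chr14:25941559-25956374 and Cphx2 at chr14:26081312-26096131. Tcstv1 lies at chr13:119893387-119894785, Tcstv3 at chr13:120316862-120318261 and Zfp352 at chr4:90218820-90225687. Windows from 250 bases before to 50 after an annotated start were matched for 6 of the 8 genes. Capitals mark TATAAA, the letters of a TATA box, and TGATTNAAT, a part of the motif bound by Dux. The windows are chr7:11005495-11005794 (+ strand), chr7:11166099-11166398 (- strand), chr7:11397665-11397964 (+ strand) and chr14:26082043-26082342 (+ strand).
Zscan4c: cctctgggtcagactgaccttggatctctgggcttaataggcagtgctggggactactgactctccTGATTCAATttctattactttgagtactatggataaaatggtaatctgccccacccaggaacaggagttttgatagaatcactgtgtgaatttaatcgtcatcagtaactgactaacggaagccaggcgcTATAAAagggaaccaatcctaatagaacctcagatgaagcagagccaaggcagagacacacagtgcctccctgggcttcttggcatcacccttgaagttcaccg
Zscan4d: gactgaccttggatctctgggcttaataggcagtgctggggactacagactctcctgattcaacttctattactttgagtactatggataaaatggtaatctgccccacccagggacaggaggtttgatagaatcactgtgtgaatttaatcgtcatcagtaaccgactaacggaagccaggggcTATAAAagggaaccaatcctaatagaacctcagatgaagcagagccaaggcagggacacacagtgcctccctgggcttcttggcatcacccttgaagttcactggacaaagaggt
Zscan4f: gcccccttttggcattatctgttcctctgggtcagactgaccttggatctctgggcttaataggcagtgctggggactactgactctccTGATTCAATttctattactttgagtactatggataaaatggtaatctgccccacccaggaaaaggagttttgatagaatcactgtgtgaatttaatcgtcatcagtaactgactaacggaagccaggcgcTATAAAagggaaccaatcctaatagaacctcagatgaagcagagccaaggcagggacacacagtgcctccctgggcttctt
Cphx2: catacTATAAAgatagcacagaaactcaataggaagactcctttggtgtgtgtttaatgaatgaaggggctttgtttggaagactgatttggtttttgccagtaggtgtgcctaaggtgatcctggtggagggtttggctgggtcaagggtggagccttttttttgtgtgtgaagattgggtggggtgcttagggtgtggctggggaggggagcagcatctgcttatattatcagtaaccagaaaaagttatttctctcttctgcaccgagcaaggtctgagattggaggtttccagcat

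The windows of Zscan4c and Zscan4f differed at 2 of 277 aligned bases, and those of Zscan4c and Zscan4d at 8 of 289. TGATTNAAT, searched on both strands, was found 184 bases upstream of the start in Zscan4c and 161 bases upstream in Zscan4f. It was not found in the windows of Zscan4d, Cphx1, Cphx2 or Zfp352, so that 2 of 6 windows held these letters, against 0.718% of all 32851 windows in the table. TATAAA was found in 5 of the 6 windows, against 13.6% of all windows. It lay 54, 65 and 31 bases upstream of the start in Zscan4c, Zscan4d and Zscan4f. In Cphx1 and Cphx2 it lay 249 and 245 bases before the annotated start of the window. Both Cphx windows (chr14:25942294-25942593 for Cphx1) lie inside the gene spans given above, at a start further into the gene, and not upstream of the gene. TGCACAC, a motif given for Zscan4 itself, was in none of the 6 windows and in 4.4% of all. The windows of Cphx1 and Cphx2 did not differ at any of 296 aligned bases. The windows that held TGATTNAAT or TATAAA were thus near-identical copies and not independent of each other, so nothing is read from these shares.

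The transcripts were as close. Zscan4c and Zscan4f transcripts differed at 7 of 1806 aligned bases, and Cphx1 and Cphx2 at 0 of 1649. Of all stretches of 100 bases, the read length, 100% in Cphx1 and Cphx2, 89.5% in Zscan4f, 72.8% in Zscan4c and 29.6% in Zscan4d also occurred in a transcript of another gene. The share was 7.79% in Tcstv3, 6.44% in Tcstv1 and 0.643% in Zfp352. RSEM divides a fragment that fits several genes among them, which leaves counts that are not whole. Of the 48 values of the 8 genes, 25 were not whole, among them 18 of 18 for the 3 Zscan4 genes, 7 of 12 for the Tcstv genes and none for Cphx1, Cphx2 or Zfp352. Values of single Zscan4 copies and of single Cphx copies are therefore uncertain, and sums over each family are given beside them. Some genes that share such stretches are in no sum, namely Zscan4-ps1, Zscan4-ps2, Zscan4-ps3 and Gm45551 for Zscan4, Cphx3 for Cphx and Gm21818 for Tcstv. Whether reads from these genes entered the sums was not tested.

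The Zscan4 genes were high in 1 of the 6 libraries. Zscan4c had 28.93 and 773.03 expected counts in d0 replicates 1 and 2, 22.11 and 16.06 in d3F, and 9.58 and 13.35 in d5FS. Scaled to library size these were 1.31 and 34.7 CPM in d0, 0.971 and 0.777 CPM in d3F, then 0.582 and 0.760 CPM in d5FS. The d0 replicate 2 library thus held 26.5 times the CPM of d0 replicate 1 (14.7 times in TPM, from 0.40 and 5.87 TPM), whereas d0 replicate 1 lay 1.35 times above d3F replicate 1 and 2.25 times above d5FS replicate 1.

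Zscan4f, the copy closest to Zscan4c, had 45.28 and 881.23 counts in d0, 30.97 and 10.8 in d3F, then 11.85 and 21.67 in d5FS, or 2.05 and 39.6 CPM, 1.36 and 0.522 CPM, and 0.720 and 1.23 CPM. Zscan4d had 26.92 and 188.1 counts in d0, 11.09 and 3.7 in d3F, then 2.09 and 4.7 in d5FS, or 1.22 and 8.45 CPM, 0.487 and 0.179 CPM, and 0.127 and 0.268 CPM. For each of the 3 genes both d0 libraries lay above all 4 later ones. For Zscan4c and Zscan4f d0 replicate 1 was nearer to the later libraries than to d0 replicate 2. For Zscan4d this held by difference in CPM but not by ratio, since d0 replicate 1 was 9.59 times d5FS replicate 1. The ratio of d0 replicate 2 to d0 replicate 1 was 19.3 for Zscan4f and 6.94 for Zscan4d in CPM, and 10.7 and 3.84 in TPM.

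**Figure D1:**
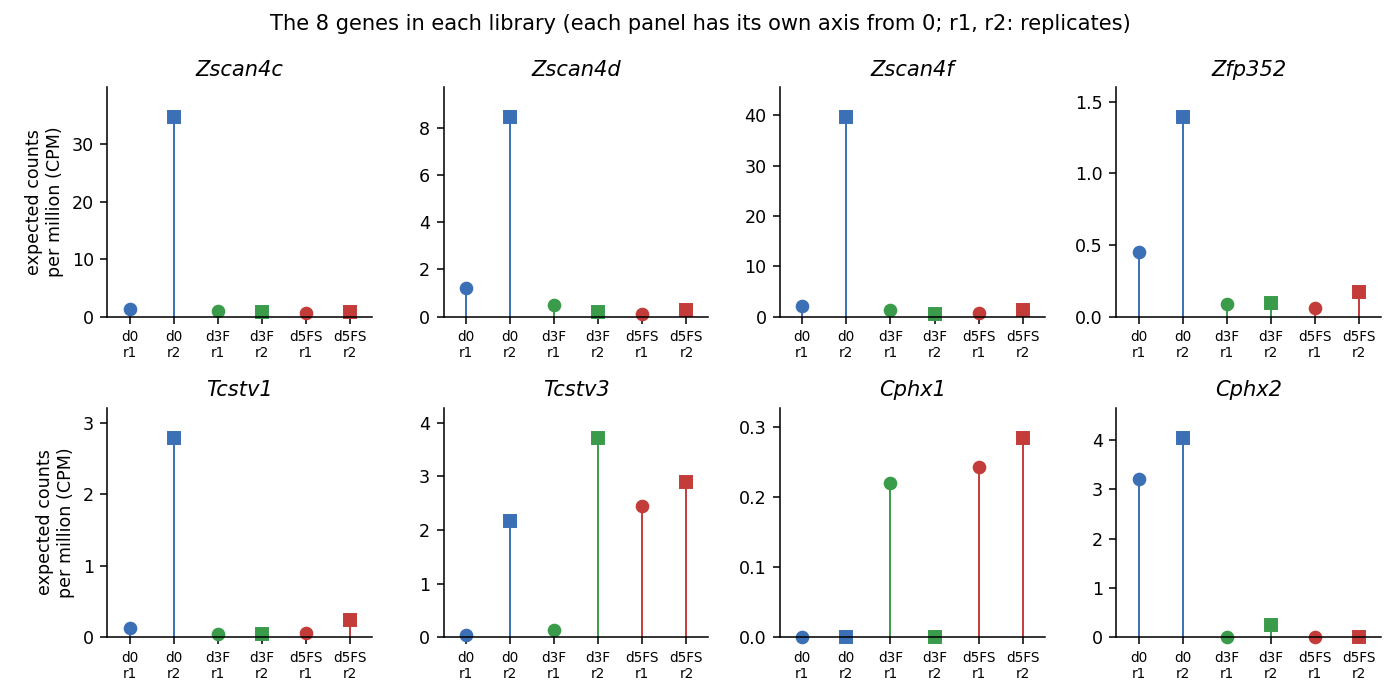
CPM (vertical axis, from 0, with its own scale in each panel) of the 8 genes in the 6 libraries, circles for replicate 1 and squares for replicate 2, blue for d0, green for d3F and red for d5FS. Zscan4c, Zscan4d, Zscan4f, Zfp352 and Tcstv1 peak in d0 replicate 2, Tcstv3 is highest in d3F replicate 2, and Cphx2 is high in both d0 libraries.

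The log2 fold changes fitted by edgeR from d0 to d3F were -4.57 (SE 1.28) for Zscan4c, -4.01 (SE 1.04) for Zscan4d and -4.67 (SE 1.26) for Zscan4f. From d0 to d5FS they were -4.95 (SE 1.33), -4.71 (SE 1.12) and -4.59 (SE 1.26). Without d0 replicate 2 the same 3 genes were at -0.56, -1.81 and -1.09 from d0 to d3F and at -0.94, -2.52 and -1.01 from d0 to d5FS. The direction was kept, and the size of the difference rested on 1 library.

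Summed over all 6 Zscan4 rows, which avoids the division of reads among these rows, counts were 140 and 2353 in d0, 83.01 and 39 in d3F, then 25 and 56.99 in d5FS. The sums were 6.33 and 106 CPM, 3.65 and 1.89 CPM, and 1.52 and 3.25 CPM, so d0 replicate 2 was 16.7 times above d0 replicate 1. The fitted log2 fold change of the sum was -4.55 (SE 1.18) from d0 to d3F and -4.74 (SE 1.20) from d0 to d5FS, and -1.17 and -1.37 without d0 replicate 2. The rows beside the 3 members are Zscan4b, which is protein-coding, and Zscan4a and Zscan4e, which RefSeq lists as pseudogenes. Their counts in d0 were 3.61 and 135.01, 18.25 and 249.38, and 17.01 and 126.25, with at most 10.73 in any later library.

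The split among copies was not the same in both d0 libraries. Zscan4d took 19.3% (95% Wilson interval 13.6 to 26.6) of the 140 Zscan4 counts in d0 replicate 1 and 7.99% (6.96 to 9.16) of the 2353 in d0 replicate 2. Zscan4c took 20.7% (14.8 to 28.2) and 32.9% (31.0 to 34.8). The intervals of both genes do not overlap between the libraries, but they cover counting error only and not the error of dividing reads among copies. Zscan4f took the largest share in both, at 32.1% (25.0 to 40.3) and 37.4% (35.5 to 39.4). In the later libraries the 25 to 83 counts left intervals too wide to order Zscan4c and Zscan4f.

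**Figure D2:**
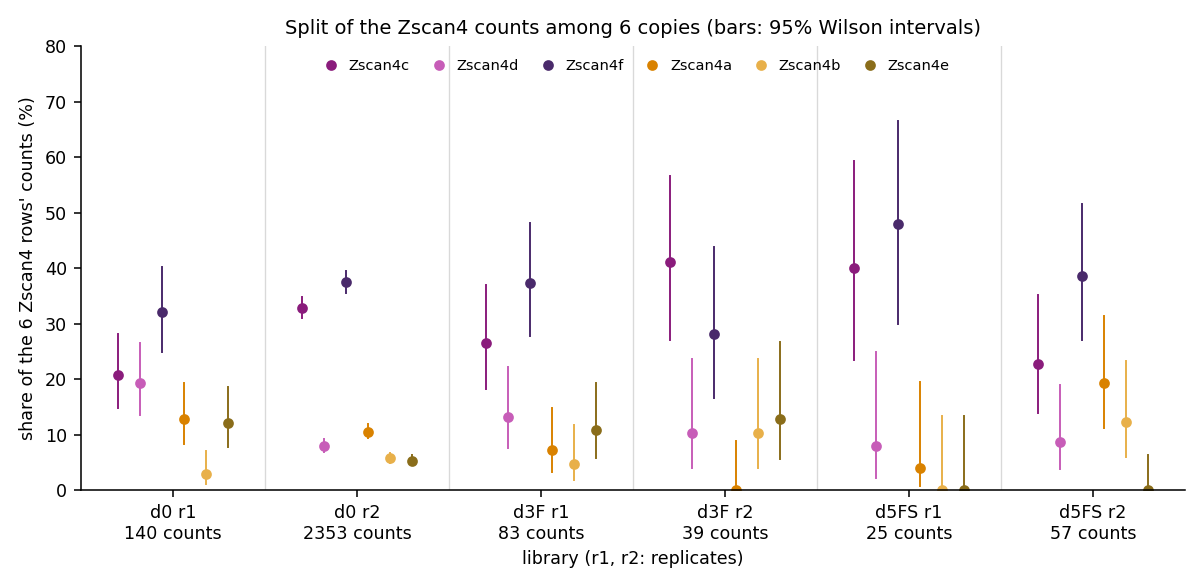
Share of the summed counts of the 6 Zscan4 rows (vertical axis, %) assigned to each copy in each library, with 95% Wilson intervals as bars and the summed count under each library. Zscan4d lies at 19.3% in d0 replicate 1 and 7.99% in d0 replicate 2, and the intervals are wide in the later libraries.

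Tcstv1 followed the Zscan4 genes and Tcstv3 did not. Tcstv1 had 3 and 62.16 counts in d0, 1 and 1.04 in d3F, then 1 and 4.23 in d5FS, or 0.136 and 2.79 CPM, 0.0439 and 0.0503 CPM, and 0.0608 and 0.241 CPM. The d0 replicate 1 library was within the range of the later ones for Tcstv1, so the populations overlapped. Tcstv3 had 1 and 48.14 counts in d0, 3 and 76.96 in d3F, then 40.39 and 50.77 in d5FS, or 0.0452 and 2.16 CPM, 0.132 and 3.72 CPM, and 2.45 and 2.89 CPM.

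Tcstv3 was thus near the limit of detection in replicate 1 of d0 and of d3F and present in the other 4 libraries, and its highest level was not in ESCs. Its fitted log2 fold change was 0.68 (SE 1.46) from d0 to d3F and 1.07 (SE 1.47) from d0 to d5FS, and 5.32 and 5.71 without d0 replicate 2. The sum of both Tcstv rows was -0.51 (SE 1.41) and -0.08 (SE 1.40), and 3.49 and 3.93 without d0 replicate 2. The direction of the Tcstv genes therefore depended on the library and on the copy.

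Zfp352, which shares almost no sequence with other genes, had 10 and 31 counts in d0, 2 and 2 in d3F, then 1 and 3 in d5FS, or 0.452 and 1.39 CPM, 0.0878 and 0.0967 CPM, and 0.0608 and 0.171 CPM. Both d0 libraries were above all later ones, and d0 replicate 2 was 3.08 times above d0 replicate 1. All 4 later values lie near the limit of 3 counts.

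The Cphx2 row was high in both d0 libraries. Cphx2 had 71 and 90 counts in d0, 0 and 5 in d3F, then 0 and 0 in d5FS, or 3.21 and 4.04 CPM in d0. Cphx1 had 0 and 0 counts in d0, 5 and 0 in d3F, then 4 and 5 in d5FS. No library had counts in both rows, and since the transcripts share all stretches of 100 bases, which copy the reads came from cannot be told apart. Against a limit of 3 counts over both d5FS libraries, the d0 level of the Cphx2 row as assigned was at least 41.1-fold higher. This bound rests on how reads were divided between the copies. For the sum of both Cphx rows the mean d0 CPM was 13.7 times that of d5FS.

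The sum of both Cphx rows was 71 and 90 counts in d0, 5 and 5 in d3F, then 4 and 5 in d5FS, which is 3.21 and 4.04 CPM, 0.220 and 0.242 CPM, and 0.243 and 0.285 CPM. Both d0 libraries were far above all later ones, and both replicates of each population lay close together. The d0 replicate 2 library was 1.26 times d0 replicate 1. The fitted log2 fold change of the sum was -4.06 (SE 0.63) from d0 to d3F and -3.88 (SE 0.63) from d0 to d5FS, and -3.73 and -3.56 without d0 replicate 2. The Cphx sum was the family with the smallest SE of the 3 and with the least shift when that library was left out.

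Levels can be set against each other between genes only per length, in TPM, which RSEM scales by the effective length of the transcripts and by library. In d0 replicate 2 the order was Zscan4f at 8.53 TPM, Zscan4c at 5.87, Zscan4d at 1.65, Tcstv1 at 1.44, Tcstv3 at 1.11, Cphx2 at 0.97 and Zfp352 at 0.24 TPM. In d0 replicate 1 Cphx2 came first at 1.40 TPM, followed by Zscan4f at 0.80, Zscan4d at 0.43, Zscan4c at 0.40, Zfp352 at 0.14, Tcstv1 at 0.13 and Tcstv3 at 0.04 TPM. Over both d0 libraries Zscan4f was at 4.67 ± 5.47 TPM, Zscan4c at 3.14 ± 3.87 and Cphx2 at 1.19 ± 0.304 (SD, n = 2). Zfp352 was at 0.19 ± 0.0707 TPM (SD, n = 2), and neighbours in the order of means did not differ beyond their spread. Cphx1, assigned 0 counts in both d0 libraries, is not ranked, since reads of the Cphx copies cannot be told apart. The place of Cphx2 carries the same limit. In d5FS Tcstv3 led with 1.41 ± 0.205 TPM and Zscan4f came next with 0.21 ± 0.0283 TPM (SD, n = 2), a gap wider than the spread. For Cphx2 the order of the d0 libraries depended on the scale, since replicate 1 was lower in CPM and higher in TPM.

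Of the 8 genes, 5 passed the filter on low counts and were in the fit, namely Cphx2, Zscan4c, Zscan4d, Zscan4f and Tcstv3. For 2 of the 5, Cphx2 and Zscan4d, fewer than 2 of the 4 later libraries reached the level of the filter. Cphx2 and Zscan4d thus passed only with their d0 counts. From d0 to d3F 4 of these 5 had a negative log2 fold change, and the same 4 did from d0 to d5FS. Over all 14539 genes tested, 1.9% were called lower and 2.8% higher from d0 to d3F, and 10.4% were called lower and 12.4% higher from d0 to d5FS, at an adjusted p below 0.05 and an absolute log2 fold change above 1. The 8 genes were chosen on these contrasts, so nothing is read from these shares. Both d0 libraries were above every later library for 5 of the 8 genes, against 14.6% of the 16881 genes with at least 10 counts in all, and 6 of the 8 had their highest level in d0 replicate 2, against 16.5% of those genes.

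The step from d3F to d5FS, which was not used in the choice, gave no call among the 5 genes by the quasi-likelihood test of edgeR, p-values being adjusted after Benjamini and Hochberg. None had an unadjusted p below 0.05, against 2635 of all 14539 genes, and DESeq2 also called 0 of the 5. The log2 fold changes and adjusted p-values from edgeR were -0.37 (SE 1.30, adjusted p = 0.912) for Zscan4c and 0.08 (SE 1.23, adjusted p = 0.981) for Zscan4f. Tcstv3 was at 0.39 (SE 1.43, adjusted p = 0.919 by edgeR). Zscan4d was at -0.71 (SE 1.19) and Cphx2 at -4.33 (SE 2.31), the latter from 5 counts in 1 d3F library against 0. Zscan4d and Cphx2 passed the filter only with their d0 counts, so their values are given with no p. Over all genes tested, 1.08% were called higher and 0.461% lower in d5FS. The sums were at -0.19 (SE 1.10) for Zscan4, 0.43 (SE 1.41) for Tcstv and 0.18 (SE 0.70) for Cphx, with adjusted p of 0.948, 0.906 and 0.924 by edgeR. SEs above 1 mean that changes of several-fold would not have been detected at these counts, and a p above the threshold does not show that the levels were alike.

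The difference between the d0 libraries extended to other genes of the 2-cell-like state. A list of 65 further such genes had 56 in the files and 44 with at least 10 counts over the 6 libraries. With a small count added to both libraries, 5 of the 8 genes and 32 of the 44 further genes were at least 4-fold higher in d0 replicate 2 than in d0 replicate 1, against 1.66% of the 16881 genes. The median ratio was 8.12 for the 44 genes and 0.884 for all genes, and 42 of the 44 were higher in d0 replicate 2. None of the 8 or of the 44 was at least 4-fold lower there. The 8 genes were chosen on their ESC level, and a gene counted mainly in d0 replicate 2 can reach the minimum of 10 counts through that library, so these counts are a description. Among the 100 genes with the highest ratio were 4 of the 8 genes and 26 of the 44, with Gm4027, Gm5662 and Zscan4c at ranks 6, 7 and 11. Other choices were made after seeing the data. With a minimum of 30 counts, 5 of 7 and 29 of 36 genes passed the 4-fold line, against 1.45% of all genes. With a minimum of 10 counts over the 4 later libraries, so that no d0 count decided which genes entered, 4 of 5 and 16 of 23 did, against 1.26%. In TPM in place of CPM, 4 of 8 and 17 of 44 did, against 0.379%, and 2 of the 44 were at least 4-fold lower.

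In the later populations fewer of these genes passed the 4-fold line. In d3F 1 of the 8 genes, Tcstv3, and 1 of the 44, Dux, were at least 4-fold higher in replicate 2, against 0.521% of all genes. In d5FS 0 of the 8 and 6 of the 44 were, against 1.96%, and the median ratio of the 44 was 1.53. By any amount, 4 of the 8 and 18 of the 44 were higher in replicate 2 of d3F, against 39.6% of all genes, and 7 of the 8 and 31 of the 44 in replicate 2 of d5FS, against 47.2%. Whether the populations differ in this was not tested. Dux, the activator of many of these genes, was at 0.0905 and 2.02 CPM in d0, 0.0878 and 0.919 CPM in d3F, then 0.122 and 3.30 CPM in d5FS. It was higher in replicate 2 of all 3 populations, as was Tcstv3, and its highest level was in d5FS replicate 2, where the Zscan4 rows summed to 3.25 CPM.

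**Figure D3:**
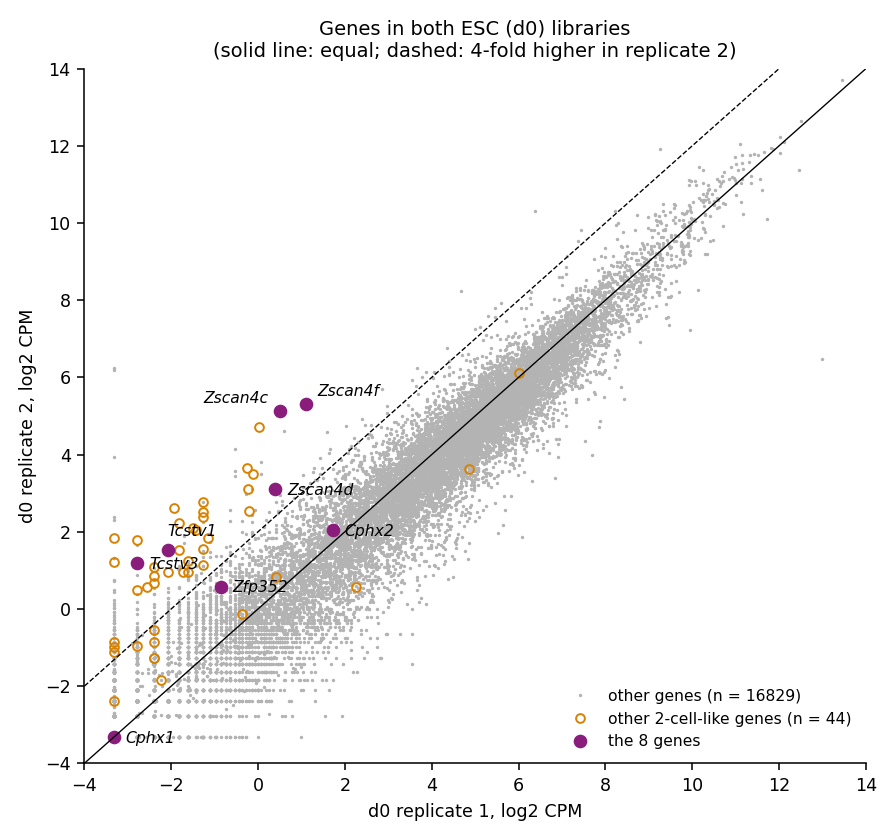
Log2 CPM in d0 replicate 1 (horizontal axis) and d0 replicate 2 (vertical axis) of the 16881 genes with at least 10 counts, with the 8 genes in purple, the 44 further 2-cell-like genes as open orange circles and all others in grey. Of the 8 genes, 5 lie above the dashed line of a 4-fold difference, while Cphx1, Cphx2 and Zfp352 lie below it.

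**Figure D4:**
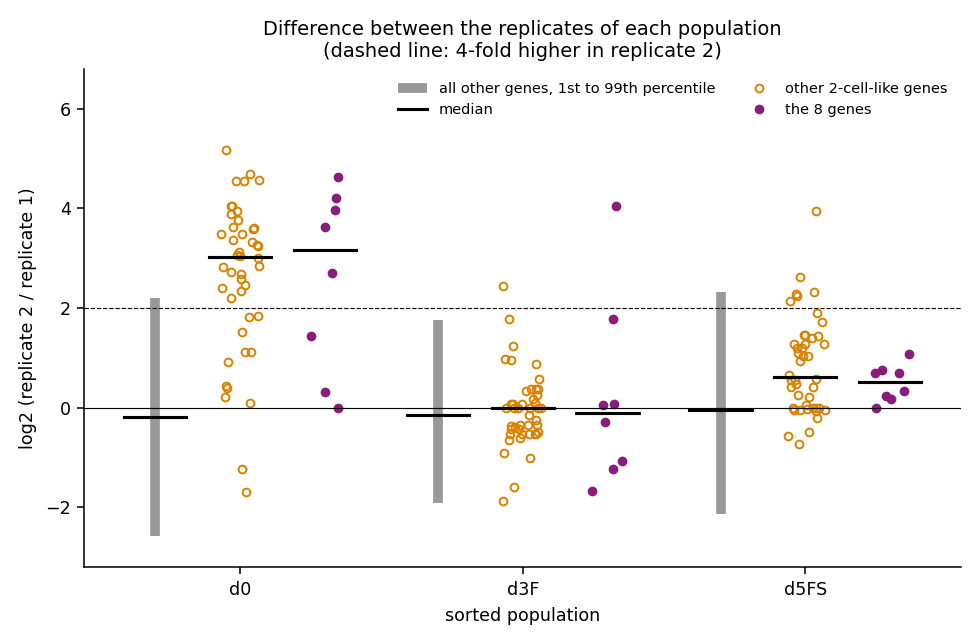
Log2 ratio of replicate 2 to replicate 1 (vertical axis) in each population for the 8 genes (purple), the 44 further 2-cell-like genes (orange) and all other genes (grey bars, 1st to 99th percentile), with medians as black lines. Most 2-cell-like genes lie above the dashed 4-fold line in d0, with a median ratio of 8.12 for the 44 genes, and around 0 in d3F.

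In groups, the 5 Usp17l genes of the list, which encode deubiquitinating enzymes, summed to 0.950 and 9.48 CPM in d0 and at most 0.911 CPM later. The 5 Obox genes, which encode homeobox proteins of the early embryo, summed to 0.226 and 2.38 CPM in d0 and at most 0.513 CPM later, and the 5 Tdpoz genes to 0.113 and 1.21 CPM in d0 and at most 0.665 CPM later. Few counts stood behind the Obox and Tdpoz sums, since Obox6 held all 5 Obox counts of d0 replicate 1 and 50 of those in d0 replicate 2, and Tdpoz5 held all 2.5 Tdpoz counts of d0 replicate 1. Tmem92 was at 0.0452 and 3.32 CPM in d0 and Gm428 at 0 and 2.24 CPM. Genes of the list with little or no such difference were Arg2, the mitochondrial arginase, at 1.22 and 1.68 CPM, Trim43b at 0.679 and 0.810 CPM and Eif1ad at 64.2 and 69.0 CPM. The 2 of the 44 that were lower in d0 replicate 2 were Ddit4l, at 28.9 and 12.4 CPM, and Zfp750, at 4.71 and 1.39 CPM.

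Of the 56 further genes in the files, 13 passed the filter and were tested. A gene that is low in d3F and d5FS can pass only through its d0 counts, so the counts over these 13 are a description. For 7 of the 13, fewer than 2 of the 4 later libraries reached the level of the filter, so these passed only with their d0 counts. From d0 to d3F none was called by edgeR, with 9 at an unadjusted p below 0.05, against 2994 of all 14539 genes. DESeq2 called 5 lower, against 1516 of all 14539 genes in either direction. The median log2 fold change of the 13 was -2.70, against -0.01 over all genes, and 12 of the 13 were negative. From d0 to d5FS 6 of the 13 were called lower and none higher, against 10.4% and 12.4% of all genes, and the median was -3.93. They were Gm5662 and, among those that passed only with their d0 counts, Zscan4e, Gm5039, Gm2016, Arg2 and Trim43b, for which values are given with no p. With a replicate block 6 were called as well, against 4296 of all 14539 genes in either direction. Gm8300 (-3.79, another that passed only with its d0 counts) took the place of Gm5662. Without the filter 53 were tested, of which 47 were negative from d0 to d3F, against 49.6% of all genes, and 43 from d0 to d5FS, against 44.2%.

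Arg2 was at 1.22 and 1.68 CPM in d0, 0.527 and 0.388 CPM in d3F, then 0.0608 and 0.0570 CPM in d5FS (log2 fold change from d0 to d5FS -4.61, SE 0.82), a call lost without either d5FS library. Gm5662 was at 0.918 and 26.2 CPM in d0 and at 0.415 and 0.950 CPM in d5FS, with a log2 fold change of -4.48 (adjusted p = 0.0463 by edgeR) that was -0.35 without d0 replicate 2 and -3.77 (adjusted p = 0.0507 by edgeR) with a replicate block. Gm5039 and Gm2016 were at -4.98 and -4.66, and at -1.59 and -1.86, no longer called, without d0 replicate 2. Both calls, and that of Gm5662, were also lost without either d5FS library. Trim43b was at -3.11, a call that was lost in all 6 fits that left out 1 library. Zscan4e had no counts assigned in d5FS, and this call was lost without either d5FS library. Against a limit of 3 counts over both libraries, its d0 level as assigned was at least 36.6-fold higher. This bound rests on how reads were divided among copies. For all Zscan4 rows summed the mean d0 CPM was 23.5 times that of d5FS. Without d0 replicate 2 only 1 d0 library was left, and no count of calls is read from that fit. Without d0 replicate 1 a gene could pass the filter through d0 replicate 2 alone. The filter then kept 36 of these genes, so no count of calls is read from that fit. Without either d5FS library the calls of the main fit from d0 to d5FS were all lost. From d3F to d5FS edgeR called 0 of the 13, with 2 at an unadjusted p below 0.05, against 2635 of all 14539 genes. DESeq2 called 0 of the 13. Over all 14539 genes edgeR called 224 and DESeq2 1104 in either direction.

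The activators Dppa2 and Dppa4 did not differ between the d0 libraries as the Zscan4 genes did. Dppa2 was at 64.5 and 60.3 CPM in d0, 2.99 and 1.02 CPM in d3F, then 1.58 and 1.20 CPM in d5FS. Dppa4 was at 119 and 161 CPM in d0, 7.77 and 5.80 CPM in d3F, then 6.26 and 5.41 CPM in d5FS. For both genes each d0 library was far above all later ones. The log2 fold change of Dppa2 was -5.08 (SE 0.50, adjusted p = 0.00463) from d0 to d3F and -5.61 (SE 0.52, adjusted p = 0.00144) from d0 to d5FS, both by edgeR. That of Dppa4 was -4.50 (SE 0.37, adjusted p = 0.0024) and -4.73 (SE 0.37, adjusted p = 0.00101), both by edgeR. These calls were kept in each of the 6 fits that left out 1 library.

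**Figure D5:**
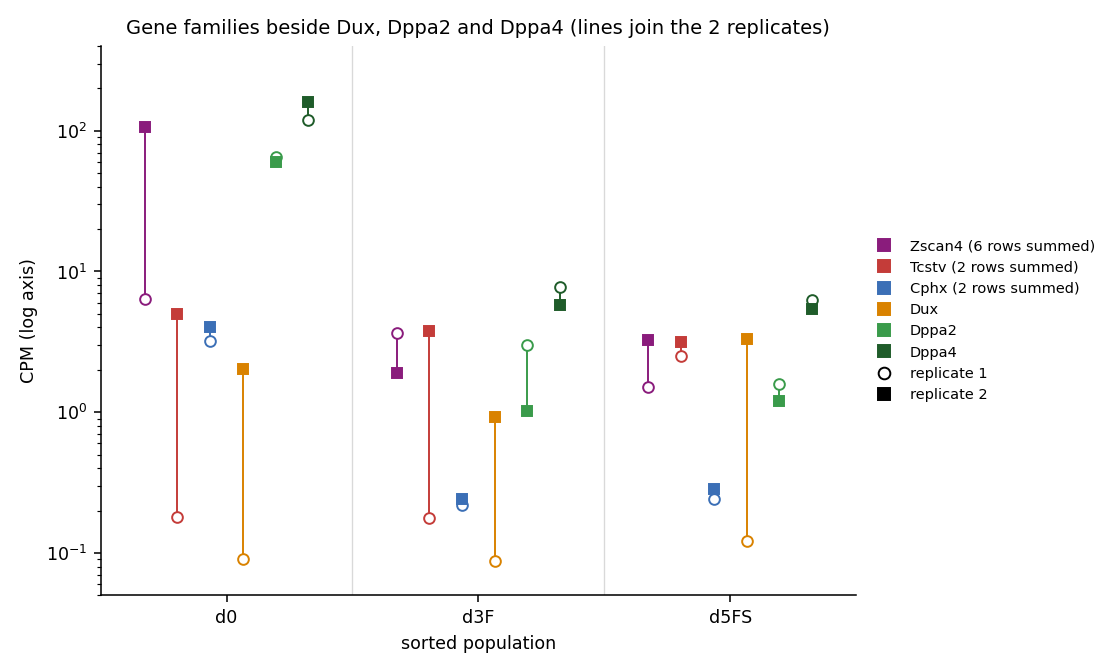
CPM on a log axis of the summed Zscan4, Tcstv and Cphx rows and of Dux, Dppa2 and Dppa4 in each population, with open circles for replicate 1, filled squares for replicate 2 and a line joining both. The Zscan4, Tcstv and Dux values of d0 are far apart (6.33 and 106 CPM for Zscan4), while those of Cphx, Dppa2 and Dppa4 lie close together.

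Of 43 genes known to act on the 2-cell-like state as activators or repressors, all were tested, and 5 were called lower and 0 higher from d0 to d3F, against 1.9% and 2.8% of all genes. They were Dppa2, Dppa4, Zfp42, Nr5a2 and Dppa3, of which Zfp42 lost its call without d3F replicate 2 and Nr5a2 without either d3F library. DESeq2 called 7 lower and 1 higher, against 1516 of all 14539 genes in either direction. From d0 to d5FS 13 of the 43 were called lower and 0 higher, against 10.4% and 12.4% of all genes. By edgeR 21 of the 43 had an unadjusted p below 0.05, against 5660 of all 14539 genes. DESeq2 called 17 of the 43 lower and 1 higher, against 4019 of all 14539 genes in either direction. Among the 13, Zfp42, a zinc finger factor of naive ESCs, was at 136 and 465 CPM in d0 and 10.5 to 18.9 CPM later. Dppa3, a maternal factor that guards DNA methylation, was at 51.3 and 105 CPM in d0 and 3.39 to 5.92 CPM later. The nuclear receptor Nr5a2 was at 9.91 and 23.5 CPM in d0 and 0.570 to 1.34 CPM later. Zfp42, Dppa3 and Nr5a2 had log2 fold changes of -4.48, -4.12 and -4.31 from d0 to d5FS (adjusted p = 0.00441, 0.0027 and 0.00481 by edgeR).

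Further genes of this list, which holds both activators and repressors, were called lower in d5FS as well. Trim28, the co-repressor of zinc finger proteins that silences endogenous retroviruses, was at 1619 and 2115 CPM in d0, 1069 and 999.6 CPM in d3F, then 421 and 653 CPM in d5FS (log2 fold change -1.92, SE 0.39, adjusted p = 0.0121 by edgeR). Ncl, which encodes nucleolin, was at -1.89, the polycomb subunits Pcgf6 and L3mbtl2 at -1.21 and -1.54, the deacetylase Hdac1 at -1.47 and the tumour suppressor Trp53 at -1.81 (adjusted p = 0.016, 0.0254, 0.0284, 0.0176 and 0.0205 by edgeR). Tet1, which oxidises methylcytosine, was at -2.28 (adjusted p = 0.0118 by edgeR). Each of these 7 stayed negative when 1 library was left out, at -2.57 to -1.90 for Tet1, -2.33 to -1.57 for Trim28, -2.27 to -1.58 for Ncl, -2.57 to -1.32 for Trp53, -2.21 to -1.09 for L3mbtl2, -1.70 to -1.21 for Hdac1 and -1.45 to -0.999 for Pcgf6, but calls were lost. Without d5FS replicate 1 all of them but that of Ncl were lost, and without d5FS replicate 2 those of Ncl, Tet1, Hdac1 and Pcgf6. Without d0 replicate 2 those of Trp53, L3mbtl2 and Pcgf6 were lost, without d0 replicate 1 that of Hdac1, and without either d3F library that of Pcgf6. From d3F to d5FS edgeR called none of the 43, with 3 at an unadjusted p below 0.05, against 2635 of all 14539 genes. DESeq2 called 1 lower, against 1104 of all 14539 genes in either direction.

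The 5 genes outside the list of 8 whose log2 CPM followed the summed level of the 8 most closely over the 6 libraries were AA414768, Tsen54, Tex14, Dnajb6 and Zglp1, with Pearson r of 0.998, 0.995, 0.994, 0.989 and 0.988. The points of this comparison are 6 libraries of which 1 lies far from the others, since the summed level of the 8 genes was 8.42 and 93.2 CPM in d0, 3.30 and 5.59 CPM in d3F, then 4.25 and 5.85 CPM in d5FS. The rise in d0 replicate 2 over d0 replicate 1 was smaller in these genes than in Zscan4, at 2.68, 1.75, 4.36, 1.51 and 3.87 times. Tex14, a gene of germ cell bridges, was at 2.58 and 11.2 CPM in d0 and 1.05 to 1.65 CPM later.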

How the data were processed

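Total RNA of d0, d3F and d5FS cells was sequenced in 2 replicates each, 6 libraries, with groups and replicate numbers taken from the labels. According to the study's methods the authors depleted ribosomal RNA and sequenced paired ends of 100 bases. Per the submitters' processing notes, STAR, RSEM and the build mm10 (GRCm38) were used, with versions and the annotation release not given in the sources used here. The authors deposited 1 RSEM table per library. The deposited expected counts estimate the fragments of a gene without normalization, the TPM values deposited beside them are scaled by effective length and library, and the effective lengths that the authors deposited are in bases. The deposited FPKM values were not used.

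CPM was the expected count divided by the library total (16457729 to 22768686). Expected counts were rounded and fitted with edgeR 4.0.16 in R 4.3.3 (filterByExpr, 14539 genes kept, TMM, glmQLFit and glmQLFTest, 1 mean per population, prior count 0.125 for fold changes, 3 residual degrees of freedom). SEs were the absolute log2 fold change over the square root of F. A call needed an adjusted p (Benjamini and Hochberg, over all genes tested) below 0.05 and an absolute log2 fold change above 1. Replicate ratios used genes with at least 10 counts over the 6 libraries. The fit was tested on simulated data.

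Members and lists were chosen with earlier results of these data known. Named were all 8 members, every Zscan4, Tcstv and Dux row, the called genes of the list of 65 and the 12 called regulators of lowest p. Also named were the 5 genes most correlated with the members' sum, the naive markers Zfp42, Klf4 and Nanog, and Foxa2 and Sox17. Gm4027, Usp17l, Obox, Tdpoz, Tmem92, Gm428, Eif1ad, Ddit4l, Zfp750, Gm8300 and, among the naive markers, Dppa5a, Pou5f1, Sox2 and Tbx3 were named after their values were seen. The same holds for Eomes, Krt7, Tfap2c, Cdx2, Col1a2, Thy1, Stra8 and Ddx4 of the other marker lists. The differences between replicates 1 and 2, over all genes kept, correlated between populations with r of 0.321 (d0 and d3F), 0.322 (d0 and d5FS) and 0.275 (d3F and d5FS), so same-numbered libraries were treated as paired in the alternative with a replicate block. Other alternatives were DESeq2 1.42.0 (its size factors, its Wald test, and that test with a null log2 fold change of up to 1), keeping all genes with at least 1 count, leaving out each library, a prior count of 2, families summed, log2(TPM + 0.1), and, added after seeing the data, all Zscan4 rows summed and, for replicate ratios, a minimum of 30 counts, a minimum of 10 counts over the 4 later libraries, and TPM. Transcript comparisons used GENCODE M21 sequences, and promoter windows and positions are from RefSeq (GRCm38.p6).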

Additional observations from a re-analysis of the deposited data

How the results depend on the processing

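Over all genes, 683 were called from d0 to d3F, and 1516 by the DESeq2 Wald test, 384 by that test against a log2 fold change of 1, 1933 without a filter, 1320 with a replicate block and 97 to 977 when 1 library was left out. From d0 to d5FS 3313 were called, and 1035 by DESeq2 against a log2 fold change of 1 and 1047 to 3037 when 1 library was left out. From d3F to d5FS 224 were called, and 1104 by the DESeq2 Wald test, 1423 without a filter, 918 with a replicate block and 0 to 496 when 1 library was left out. Of the further 2-cell-like genes, 0 were called lower from d0 to d3F, against 5 and 3 by the 2 DESeq2 tests, 24 of 53 without a filter and 0 to 24 when 1 library was left out. From d0 to d5FS 6 were, against 3 by DESeq2 with the log2 fold change of 1, 26 of 53 without a filter and 0 to 25 when 1 library was left out. With 1 library left out the filter kept 14 to 37 of these genes instead of 13. A gene could then enter through 1 library alone, so nothing about these genes is read from the upper ends of these ranges. Of the 43 regulators 13 were called, against 5 by DESeq2 with the log2 fold change of 1 and 6 to 13 with 1 library left out. At least 4-fold higher in d0 replicate 2 were 32 of 44 further genes, against 16 of 23 with a minimum of 10 counts over the 4 later libraries and 17 of 44 in TPM. The number of members called from d3F to d5FS was 0 under each alternative. With the pairing taken into account by a replicate block, 17 of the 43 regulators were called from d0 to d5FS instead of 13. The named regulators kept their calls. The DESeq2 Wald test called 18 of the 43 and the fit without a filter 16. The block changed 2 calls among the further 2-cell-like genes from d0 to d5FS. Gm5662 (-3.77) was lost and Gm8300 (-3.79), which passed only with its d0 counts, was gained. Zscan4f from d3F to d5FS, not called, turned to -0.33 with the block. Values that changed direction when 1 library was left out were those of Zscan4f from d3F to d5FS (-0.43 to 0.78), and Tcstv3 from d0 to d3F (-3.27 to 5.32) and from d3F to d5FS (-0.60 to 4.34). Cphx2 from d3F to d5FS (-5.34 to 0) reached 0 without the only d3F library with counts, and the Tcstv sum turned to 3.49 from d0 to d3F and to 3.93 from d0 to d5FS without d0 replicate 2. With families summed, Tcstv3 turned to -0.51 from d0 to d3F and to -0.077 from d0 to d5FS. The cause was not tested. Depth limited what the low genes could show, since Cphx1, Tcstv1 and Zfp352 had at most 5 counts in each later library.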
